A study of Homo sapiens with 6 samples.

Results

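CDDO-Im gained 481 NRF2 regions that lay far from protein-coding genes in HMC3 cells, of 1428 gained regions at any position and 7386 regions considered. A region here is a stretch of the genome where 1 or more of the deposited peak lists had a peak, with overlapping peaks joined. The 481 were chosen by listing and position: both CDDO-Im libraries listed a peak, neither vehicle library did, and the summit lay outside every protein-coding gene and over 50 kb from the nearest gene end. Before this choice, 77 megabases that held more than 20 regions each were dropped, which left the 7386 of 19331 joined regions. Gained regions made up 19.3% of the 7386, and lost regions, those that only the pair of vehicle libraries listed, 0.0542%. Of the 2491 regions far from genes, 19.3% were gained and 0% were lost. The dropped megabases had another balance, with 46 gained and 235 lost regions far from genes. The choice fixed these counts, so they describe the set and test nothing.

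NRF2 was mapped by ChIP-seq, in which DNA bound by a protein is pulled down with an antibody and sequenced, in the established human microglial line HMC3. Treated cells were given CDDO-Im, a synthetic triterpenoid that activates NRF2, at 30 nM for 4 h, and control cells vehicle, with 2 libraries in each group and 1 antibody to NRF2 throughout. The treatment text is the same for every sample, so groups rest on the sample titles. The 2 input samples were not analysed here, and peak lists hold no expression values with which the microglial label could be checked.

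NRF2 is a leucine zipper transcription factor that KEAP1 holds at a low level in unstressed cells and that electrophiles such as CDDO-Im release. It pairs with a small MAF protein and binds the antioxidant response element, whose core reads TGACNNNGC, and which in many target genes takes the form TGACTCAGC. The shorter letters TGANTCA within that form are also the core of the site of AP-1, a related family of leucine zipper factors. NRF2 binds both promoters and distal sites, and a distal site can act on a gene over a long stretch of DNA, so the nearest gene named here is a landmark and not a target.

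The best characterised start site under a gained region far from genes was that of LUCAT1, a long non-coding RNA (lncRNA) induced by stress that NRF2 is known to regulate in human airway cells. LUCAT1 (lncRNA, GRCh38.p14, chromosome 5, 91302986 to 91314402, minus strand) had its annotated start inside the region, which ran from 91314276 to 91314640. The region's summit lay 54165 bp from the nearest protein-coding gene end, that of ARRDC3. It held 13 and 19 tags (sequenced fragments at the summit) in CDDO-Im 1 and 2, and no peak was listed in vehicle 1 or 2. The summits of the 2 libraries lay 109 bp apart. That of CDDO-Im 1 was 45 bp downstream of the LUCAT1 start and that of CDDO-Im 2 was 64 bp upstream. No other region of any library lay within 200 kb of the gene. Below is the RefSeq promoter window, chr5:91314353-91314652 on the minus strand, which the region covered for 288 of 300 bases. It is shown because it carries the letters of an antioxidant response element under the peak, and the capitals mark it.
LUCAT1: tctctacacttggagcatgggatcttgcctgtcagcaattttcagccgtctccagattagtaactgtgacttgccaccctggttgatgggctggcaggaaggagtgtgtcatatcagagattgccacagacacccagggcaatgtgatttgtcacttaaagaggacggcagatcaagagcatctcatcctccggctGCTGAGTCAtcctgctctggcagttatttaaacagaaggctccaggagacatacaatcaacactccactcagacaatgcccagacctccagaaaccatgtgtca

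The capitals spell TGACTCAGC on the opposite strand and hold the cores TGACNNNGC and TGANTCA as well, so the 3 motifs are 1 match. The match began 54 bp upstream of the LUCAT1 start, and its centre lay 95 bp from the CDDO-Im 1 summit and 14 bp from the CDDO-Im 2 summit. Among all 35116 promoter windows of the table, read on both strands, 13.3% held TGACNNNGC, 0.561% held TGACTCAGC and 7.71% held TGANTCA. LUCAT1 was picked out after its values were seen.

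**Figure D1:**
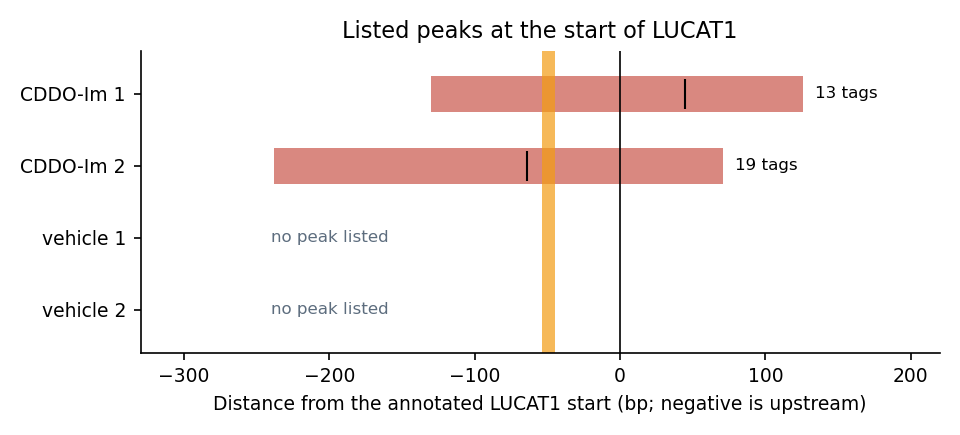
Peaks listed at the start of LUCAT1, by library, against the distance from the annotated start in bp. Bars are the listed peaks, black ticks their summits, the vertical line the start and the orange band the match to the antioxidant response element; CDDO-Im 1 and 2 have 1 peak each, with 13 and 19 tags, and the vehicle libraries none.

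Promoter windows of 1 other gene, the uncharacterised lncRNA LOC105379203, lay under a gained region far from genes. The table holds 2 overlapping windows for it, and the one shown for comparison with LUCAT1 is printed here (chr15:20127537-20127836, minus strand, GRCh38.p14). The region (20127654 to 20127973) held 12 and 15 tags in CDDO-Im 1 and 2. The window has TGANTCA, in capitals, at 2 places, the nearer of them centred 5 bp from the CDDO-Im 1 summit and 14 bp from the CDDO-Im 2 summit. The longer core TGACNNNGC is not among its letters.
LOC105379203: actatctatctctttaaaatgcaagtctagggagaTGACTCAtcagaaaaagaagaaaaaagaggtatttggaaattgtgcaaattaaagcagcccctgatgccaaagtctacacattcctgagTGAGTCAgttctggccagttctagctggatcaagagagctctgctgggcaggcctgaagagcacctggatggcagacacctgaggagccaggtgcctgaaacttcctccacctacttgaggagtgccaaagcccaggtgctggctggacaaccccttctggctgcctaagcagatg

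Motifs were also counted in the promoter windows under gained regions at any position. Over these, 18 genes had a window under a region, and 10 of these genes had TGACNNNGC in it, 7 had TGACTCAGC and 10 had TGANTCA. Regions of all 4 libraries touched the windows of 9 genes, with 5, 4 and 4 holding these motifs in the same order. Regions listed by vehicle libraries alone touched 4, with 0, 0 and 0. These are counts of genes, some with several windows, so they are not set against the shares of windows above, and they were not tested. No genome was used, so the sequence under the other regions was not read. Repeats and how uniquely reads map were not checked for any of the 481 regions.

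Gained regions seldom lay beside microRNA genes. A hairpin lay within 10 kb of the summit in 4 of the 444 gained regions compared (0.901%), against 9 of 1881 other regions far from genes (0.478%). The strongest of the 4 (chromosome 7, 130885003 to 130885395) had 24 and 44 tags in CDDO-Im 1 and 2 and lay in the lncRNA LINC-PINT. Its summit was 8372 bp from MIR29A and 7643 bp from MIR29B1, which make 2 microRNAs of 1 family, known for repressing collagen and other matrix genes. Another (chromosome 2, 87629429 to 87629854) covered the hairpin of MIR4435-1, with its summit 77 bp from the hairpin. The mature sequence is annotated at 2 loci, and whether the tags could come from the other locus was not tested. The mature sequences are shown for these because 2 hairpins of a family lay by 1 region and another hairpin lay within one, with the seed (bases 2 to 8) in capitals, and miR-29a and miR-29b share it.
hsa-miR-29a-3p: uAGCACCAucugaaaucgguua
hsa-miR-29b-3p: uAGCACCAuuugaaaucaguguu
hsa-miR-4435: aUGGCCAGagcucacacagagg

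The gained regions rested on few tags, and the 2 CDDO-Im libraries differed in level. They held a median of 10 tags (quartiles 8 and 14, range 5 to 42) in CDDO-Im 1. CDDO-Im 2 had a median of 15 (quartiles 11 and 21, range 5 to 65). Divided by the lowest background of each library, 0.332 and 0.367 tags, the medians were 30.2 and 40.8. CDDO-Im 2 was the higher of the pair in 346 of the 481 regions, with a median ratio of 1.25 of CDDO-Im 2 to CDDO-Im 1. In 41 regions both libraries had at least 20 tags, and in 83 neither had more than 10. Across the 481 regions the tags of both libraries had a Spearman's rho of 0.56, a description over regions that share both libraries and were all chosen for being listed in both.

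**Figure D2:**
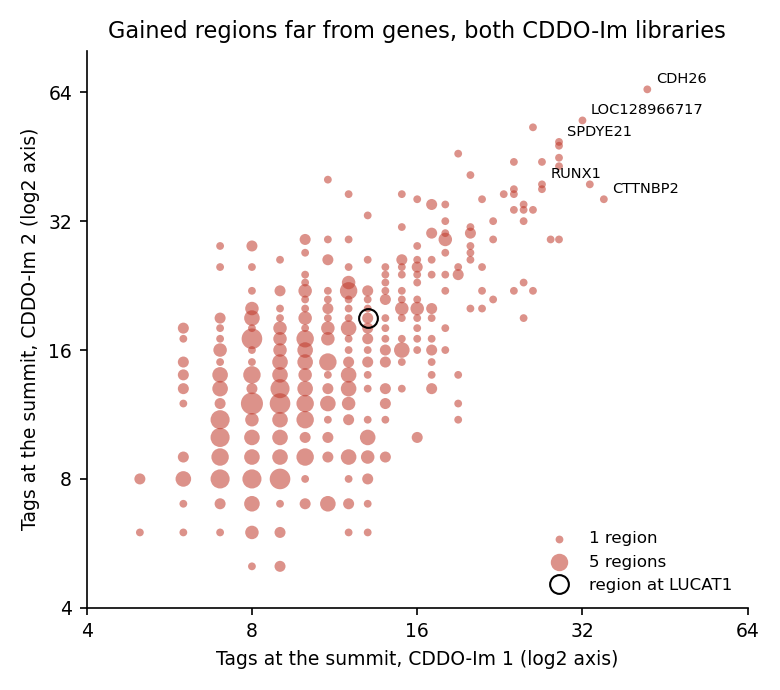
Tags at the summit in CDDO-Im 1 (x axis) and CDDO-Im 2 (y axis), both on log2 axes, for the 481 gained regions far from genes; point area gives the number of regions at the same pair of values. The medians are 10 and 15 tags, the 5 strongest by lower fold enrichment are named by their nearest gene, and the LUCAT1 region (13 and 19 tags) is ringed.

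Absence from both vehicle lists does not show absence of NRF2. Outside the dropped megabases, the median listed region of vehicle 1 and 2 had 6 and 7 tags, and each library listed peaks from 4 tags where the background was lowest. Both CDDO-Im libraries had over 7 tags in 390 of the 481 regions. A vehicle peak lay within 10 kb of the summit in 9 regions and within 1 kb in 2, and the median distance to the nearest vehicle summit was 417791 bp. A vehicle tag count at an unlisted place is not in the lists, so no fold change is given.

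The 2 CDDO-Im libraries placed their summits close together, in part by construction. A region was chosen only where peaks of both were joined, and these had median widths of 273 and 293 bp in CDDO-Im 1 and 2. The summits lay within 50 bp of each other in 397 of 481 regions (82.5%, exact binomial interval 78.8% to 85.8%), with a median distance of 21 bp. In gained regions near genes the share was 85.6%, and in those inside genes 84.2%, also with a median of 21 bp. Regions of all 4 libraries had 96.1% and a median of 11 bp, and they also held more tags, with medians of 35 and 54.5 for CDDO-Im 1 and 2. The part of tag number in the agreement of summits was not tested.

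Gained regions had much the same tag numbers and widths wherever they lay, with medians 1 or 2 tags lower far from genes. Gained regions outside but within 50 kb of a gene (313) had medians of 11 and 17 tags in CDDO-Im 1 and 2, and those inside genes (634) of 11 and 16, against the 10 and 15 above. Peak widths had medians of 273 and 293 bp far from genes, 280 and 299 bp near them and 275 and 294 bp inside. The local background was at its lowest in more of the regions far from genes: in 32.6% (28.5% to 37.0%) for CDDO-Im 1 and 36.6% (32.3% to 41.1%) for CDDO-Im 2. Near genes these shares were 26.2% and 28.1%, and inside genes 26.2% and 26.8%. The difference in background was not tested, and with 2 CDDO-Im libraries it was seen in both.

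No shift of NRF2 regions towards or away from sequence far from genes was detectable with 2 libraries a group. Such sequence held 33.6% and 32.2% of the regions listed by CDDO-Im 1 and 2, against 35.4% and 32.7% of those listed by vehicle 1 and 2. The means were 32.9% ± 0.976 and 34.0% ± 1.94 (SD, n = 2 each), a difference of -1.13 percentage points (exact permutation p = 0.667, two-sided), and the groups overlapped. With 2 libraries against 2 this test cannot give a p under 0.333. With the dropped megabases included the difference was -25.6 points (exact permutation p = 0.333), and without vehicle 1 it was 0.24.

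Of the 4 classes of listing described here, regions of all 4 libraries had the lowest share far from genes. The share was 33.7% of the 1428 gained regions (exact binomial interval 31.2% to 36.2%) and 33.7% of all 7386 regions. Regions of both CDDO-Im and 1 vehicle library had 31.0% (26.8% to 35.5%), and regions listed by 1 library had 34.2% (32.9% to 35.5%). Regions of all 4 libraries had 24.8% (57 of 230, 19.3% to 30.9%). Sequence far from genes made up 37.0% of the chromosomes outside the dropped megabases, assembly gaps included. The classes were not tested against each other, and the intervals cover counting error only.

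**Figure D3:**
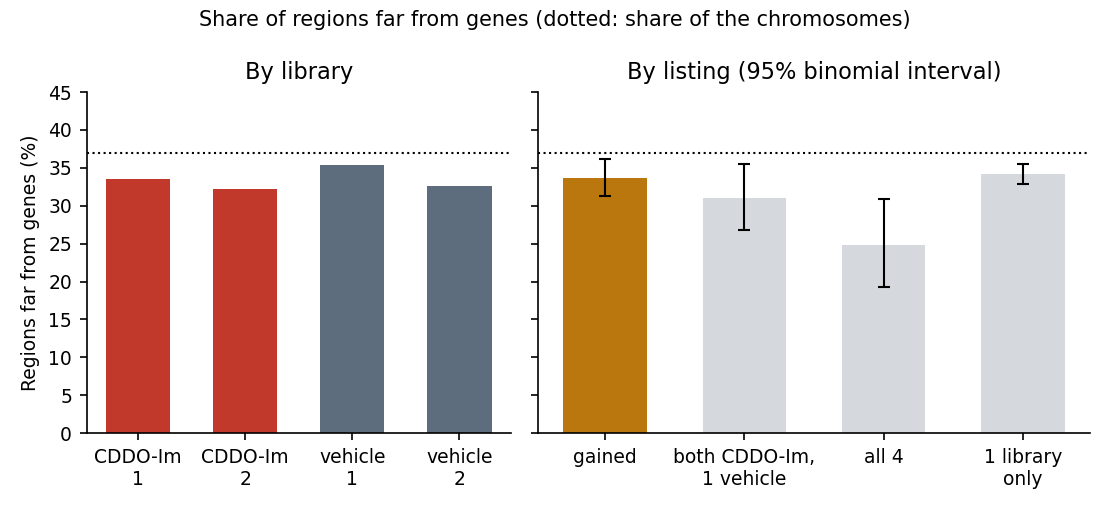
Share of regions that lie far from protein-coding genes, in percent, for each library (left; CDDO-Im red, vehicle grey) and by listing (right; bars are exact 95% binomial intervals). The dotted line is the share of the chromosomes, 37.0%; the library shares span 32.2% to 35.4%, and regions of all 4 libraries have the lowest share of the classes plotted, 24.8%.

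In the 57 regions far from genes that all 4 libraries listed, levels can be set side by side. Tags divided by the lowest background of each library were compared, each CDDO-Im library against each vehicle library. They were higher with CDDO-Im throughout in 39 regions and lower throughout in 6. The CDDO-Im level was a median of 2.77 times the vehicle level (quartiles 0.959 and 3.65). These regions are not among the 481.

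The 481 regions spanned a wide range of distances, with a median of 191888 bp to the nearest gene end and quartiles of 89024 and 395213 bp. Between 50 and 100 kb lay 135 regions (28.1%), against 23.0% of the other 2010 regions far from genes. Beyond 1000 kb lay 17 regions (3.53%), against 6.92% of the others. Fold enrichment varied little with distance up to 1000 kb. The median of its lower value was 7.34 between 50 and 100 kb and 7.51 between 500 and 1000 kb. In the 17 regions beyond 1000 kb it was 8.25, and Spearman's rho with distance over the 481 was 0.036. The fold enrichment is the value of the authors' peak caller, and the lower of the 2 CDDO-Im values is used to rank regions.

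**Figure D4:**
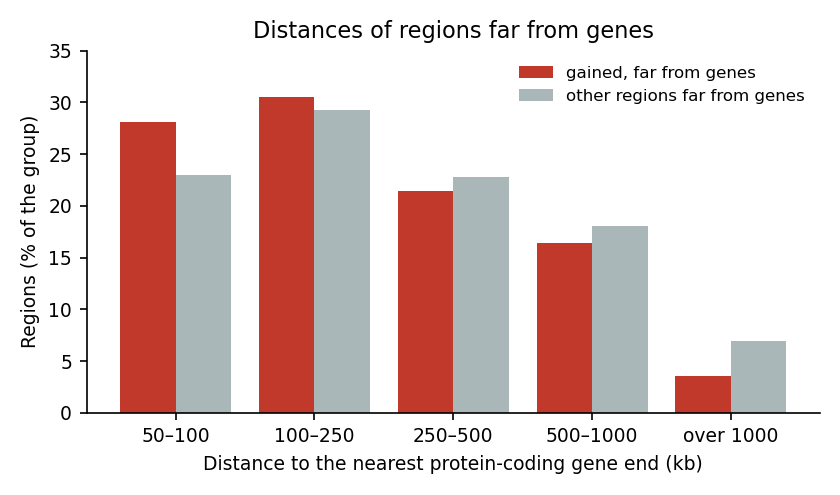
Share of regions, in percent, by distance to the nearest protein-coding gene end in kb, for the 481 gained regions far from genes (red) and the 2010 other regions far from genes (grey). The gained regions have the larger share between 50 and 100 kb, 28.1% against 23.0%; they have the smaller share over 1000 kb, 3.53% against 6.92%.

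The farthest regions lay in long stretches without a protein-coding gene. One on chromosome 22 (10650251 to 10650484), 4877787 bp from OR11H1, an olfactory receptor gene, held 5 and 8 tags in CDDO-Im 1 and 2. One on chromosome 4 (179465452 to 179465742), 1982015 bp from TENM3, a synaptic adhesion protein, held 10 and 14 tags. The third, on chromosome 2 (82691120 to 82691371), lay 1732290 bp from SUCLG1, a subunit of a citric acid cycle enzyme, with 11 and 7 tags. By fold enrichment they ranked 470, 184 and 436 of the 481. At the 50 kb limit, the regions just inside it were nearest to CCL1 (50009 bp; 9 and 8 tags), INSIG1 (50223 bp; 12 and 22) and ITSN2 (50344 bp; 10 and 7). Those just outside were nearest to DOCK10 (49119 bp; 13 and 12), TBC1D32 (48961 bp; 10 and 8) and POLD3 (48425 bp; 11 and 15), so tag numbers on the 2 sides overlapped.

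The strongest regions, by the lower fold enrichment, had more than 20 tags in both libraries. The first (chromosome 6, 4358589 to 4358955) lay 86273 bp from LOC128966717 and held 32 and 55 tags in CDDO-Im 1 and 2, with a fold enrichment of 22.3 and 22.2. The second (chromosome 7, 67602252 to 67602690) lay 313432 bp from SPDYE21 and held 29 and 49 tags. The third (chromosome 7, 117997821 to 117998236) lay 124595 bp from CTTNBP2, a cytoskeletal protein of dendritic spines, and held 35 and 36 tags. The region with the most tags in each library, 42 and 65 (chromosome 20, 60160462 to 60160933), lay 124711 bp from CDH26, a cadherin.

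The others of the first 12 had nearest genes of varied function. A region 412594 bp from RUNX1, a transcription factor of blood cell development (chromosome 21, 35461720 to 35462102), held 27 and 39 tags. A region 157105 bp from IGF1, a growth factor (chromosome 12, 102638689 to 102639147), held 29 and 48 tags, and both libraries placed its summit at the same base. A region 540301 bp from MYC, which drives growth and metabolism (chromosome 8, 128283102 to 128283453), held 28 and 29 tags. The remaining 5 were nearest to MAP1LC3B2, an autophagy protein of the LC3 family (29 and 43 tags), ATXN1, a transcriptional repressor (27 and 44), SH3BP4, an endocytic adaptor (29 and 45), NCAM2, a neural adhesion molecule (26 and 53), and NUDT12, an NAD(H)-cleaving enzyme of peroxisomes (33 and 39). None of the 12 had a vehicle peak within 10 kb.

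Of the 481 summits, 144 (29.9%) lay in a gene that is not protein-coding, and 133 of these in a lncRNA. The share was 28.1% in the other regions far from genes. In 111 of the 144 the gene has only a LOC or LINC symbol. Besides those at SPDYE21, CDH26, RUNX1 and IGF1, which lay in LOC105375340, MIR646HG, LOC100506403 and LINC02456, the strongest included a second region near MYC, in PVT1. PVT1 is a lncRNA amplified with MYC in many tumours, and its region (chromosome 8, 128065500 to 128065968) held 24 and 37 tags. The region in LINC-PINT, described with MIR29A above, was sixth of this kind. The seventh and eighth lay in LOC105374715 (24 and 38 tags) and LINC00572 (20 and 28 tags). Few lay at start sites: 3 of 444 regions had the start of a non-coding gene within 1 kb and 36 (8.11%) within 10 kb, against 7.71% of the other regions far from genes. The 37 regions on chromosome 8 were not compared with start sites or microRNAs.

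Most gained regions stood alone. Of the 481, 431 had no other within 100 kb, and 50 (10.4%) formed 20 pairs, 2 groups of 3 and 1 group of 4. There were 4.40 gained regions per 10 Mb of sequence far from genes. The counts of pairs and groups were not set against other regions or random placement. The group of 4 lay 291406 to 436896 bp from H3Y1, a histone variant gene, on chromosome 5 (17947098 to 18092965), with 9 to 17 tags in CDDO-Im 1 and 10 to 20 in CDDO-Im 2. All but the farthest of them lay in a megabase that held 12 joined regions. Of the 481, only 6 lay in a megabase of more than 10 joined regions. A group of 3 lay near KTN1, which encodes kinectin (chromosome 14, 55814099 to 55882182; 7 to 9 and 10 to 17 tags), and another near PAPPA, a protease that frees insulin-like growth factors (chromosome 9, 115964802 to 116092250; 9 to 13 and 8 to 15 tags). Only 2 pairs of neighbours lay within 10 kb: 899 bp apart near KTN1, and 829 bp apart near PGRMC2, a heme-binding membrane protein (chromosome 4, 128347104 to 128348314), where the weaker held 15 and 15 tags and the stronger 23 and 37. The PGRMC2 pair was named after its values were seen.

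The 481 regions had 407 different nearest genes, 2.04% of the 19974 protein-coding genes. Of these genes, 349 had 1 region, 46 had 2 and 12 had 3 or more. H3Y1 had 5, and CBLN2, a synaptic organiser, and PAPPA had 4 each. TFAP2A, a transcription factor of the neural crest, had 3, between 195047 and 354241 bp away on chromosome 6, with 12 and 29 tags in the strongest and all 3 in the non-coding gene OFCC1.

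No gene of the NRF2 lists was the nearest gene of a gained region far from genes. The lists held 81 genes of glutathione, thioredoxin, detoxification, heme and iron, NADPH and the NRF2 pathway, and 0 of them were nearest, against 2.04% of all genes. In total, 2 of the 81 (2.47%) were nearest to any region far from genes, against 6.58% of all genes. The lists do not hold every gene of these families. Genes outside them that were nearest to a gained region included AKR1C4, an aldo-keto reductase (53328 bp; 8 and 28 tags in CDDO-Im 1 and 2). Others were FTMT, a mitochondrial ferritin (114485 bp; 14 and 25 tags), and MAF (370397 bp; 10 and 29 tags). These were named after their values were seen. AP-1 genes had 0 of 10 and microglial genes 0 of 12. No gene of the AP-1 or microglial list was nearest to any region far from genes, gained or not, so these counts do not set the gained regions apart. The choice places these regions over 50 kb from every protein-coding gene, so the counts say nothing of NRF2 at the promoters of those genes.

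Inflammatory genes had 1 of 15, the cytokine gene IL6, and the count over any region far from genes was also 1 of 15. The IL6 region (chromosome 7, 22652050 to 22652289) lay 75056 bp from the gene, in the non-coding gene LOC401312, and held 9 and 12 tags in CDDO-Im 1 and 2. Neuronal and synaptic genes had 3 of 11, among them STMN2, a tubulin-binding protein (82584 bp; 19 and 11 tags), and SYT1, a calcium sensor of synaptic vesicles (104313 bp; 15 and 19 tags). Mesenchymal genes had 3 of 12, all cadherins: CDH6 (76851 bp; 8 and 9 tags), CDH11 (1201372 bp; 14 and 11 tags) and CDH2 with 2 regions (286738 and 349269 bp; 12 and 13, and 10 and 13 tags). Genes of these 2 lists were often the nearest gene of any region far from genes, in 5 of 11 and 5 of 12, so the counts do not set the gained regions apart.

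Every chromosome considered had at least 1 gained region far from genes. There were 4.40 per 10 Mb of sequence far from genes, assembly gaps included. Chromosomes 20, 3 and 8 had the highest densities, 6.92, 6.61 and 6.53, with 13, 45 and 37 regions. Chromosome 22 had the lowest, 1.03 with 2 regions, followed by chromosome 19 with 1 region (2.50), chromosome 21 with 6 (2.63) and the X chromosome with 18 (2.76). Read as a share of all regions far from genes, 20%, 25% and 22.3% were gained on chromosomes 20, 3 and 8. Over all chromosomes this share was 19.3%, close to that of chromosome 20, which had the highest density. By the same share, chromosome 13 had 19 of 58 gained (32.8%) and chromosome 21 had 6 of 61 (9.84%).

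**Figure D5:**
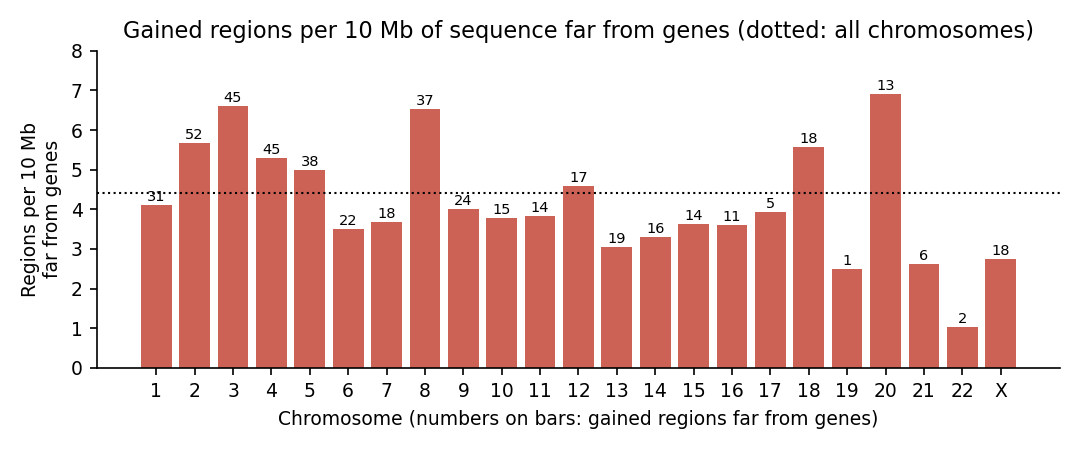
Gained regions per 10 Mb of sequence far from protein-coding genes, by chromosome, with the number of regions above each bar. The dotted line is the value over all chromosomes, 4.40. Chromosomes 20, 3 and 8 are highest and chromosome 22 is lowest. On chromosome 20 the gained share of all regions far from genes was 20%, against 19.3% over all chromosomes.

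The size of the set depended on the lists of both CDDO-Im libraries. With CDDO-Im 2 alone standing for the treated cells it held 1312 regions, and with CDDO-Im 1 alone 880. With non-coding genes counted as genes it held 114, so most of the 481 lay in or within 50 kb of an annotated non-coding gene. This share was not counted for the other 2010 regions far from genes, so it does not set the gained regions apart. Summits inside a non-coding gene made up 29.9% of the 481 and 28.1% of the others.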

How the data were processed

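NRF2 ChIP-seq peak lists of 4 libraries from HMC3 cells were used, 2 with CDDO-Im and 2 with vehicle. The submitters' processing notes name MACS2 2.2.7.1, BWA 0.7.17 and bcl2fastq 2.15.0, and the builds hg38 and GRCm38, of which positions were read as hg38. The control, the threshold and the treatment of duplicates were not given in the sources used here. The authors' lists give, per library, a deposited fold enrichment (a ratio), a deposited −log10 p and −log10 q, and a deposited score of 10 times the −log10 q. Peaks carry 1 library in their names, so lists were made per library.

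Tags at a summit were recovered as the whole number t for which fold is t plus 1 over background plus 1 and p the Poisson tail above t (tolerance 0.001 plus 0.0002 of the value). All peaks matched, and 97.7% to 99.4% had a single match. The lists held 4024 and 12433 peaks for CDDO-Im 1 and 2, and 4227 and 7448 for vehicle 1 and 2. Lowest backgrounds, a stand-in for depth, were 0.332 and 0.367, against 0.316 and 0.315 tags.

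Overlapping peaks (1 bp or more) on the autosomes and X were joined. Genes came from RefSeq GRCh38.p14 (19974 protein-coding), promoter windows (250 bases before to 50 after a start) and mature microRNAs from RefSeq tables of the same build. All 141 genes of the lists matched. One test was made, an exact permutation of libraries. Python 3.11.15, numpy 2.4.6, scipy 1.17.1 and pandas 2.3.3 were used. Tag recovery, joining, classes of listing and placement against genes were tested on simulated data. The permutation test and motif search were tested on inputs with known answers, and the other steps had no such test. Intervals are exact 95% binomial (Clopper-Pearson). Whether replicates were separate cultures is not stated, so their spread may be technical. Members, lists and the rule for named regions were chosen with earlier results of these data known. That rule takes the 12 strongest regions, the 3 farthest, 3 on each side of the limit, groups of 3 or more within 100 kb, up to 4 per gene list and the 8 strongest in non-coding genes. One region that this rule names is not reported here.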

Additional observations from a re-analysis of the deposited data

Results flagged for a closer look

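On sequences outside the autosomes and X, which enter no comparison above, more peaks were listed with CDDO-Im than with vehicle, which put them here. CDDO-Im 1 listed 142 and CDDO-Im 2 listed 189, against 129 in vehicle 1 and 140 in vehicle 2. As a share of each list these were 3.53% and 1.52% with CDDO-Im, against 3.05% and 1.88% with vehicle, so the shares of the groups overlapped.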

How the results depend on the processing

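The count of 481 stayed within 1.5 times of itself at a distance of 25 or 100 kb, with other limits for dense megabases, with none dropped, with a −log10 q from 5 up and with a stricter overlap. It was 270 for peaks with a −log10 q from 10 up. At either q limit the peaks of all 4 libraries were filtered. A region whose vehicle peaks fell below the limit could thus count as gained, and the 270 are not all among the 481. Of the 481, 161 (33.5%) had a −log10 q of at least 10 in both CDDO-Im libraries. The count was 114 with non-coding genes included, and between 535 and 1312 when a library was left out. The difference in the share far from genes changed sign, to 0.39 points for peaks with a −log10 q from 5 up and 0.77 for those from 10 up, and ran from -2.49 to 0.24 points when a library was left out. Its exact permutation p lay between 0.333 and 1 over all settings. With a replicate block it was -1.13 points with a p of 0.5, the smallest that 2 pairs allow. The deviations of same-numbered libraries from their group mean had a correlation of -0.043 over 230 regions. These regions share the same 4 libraries, so the value cannot show whether the replicates were paired. In the 270 regions counted at a −log10 q of at least 10, the median tags were 17 and 24 in CDDO-Im 1 and 2. Summits within 25 bp of each other made up 59.5%, and within 100 bp 95.8%. The cause of these changes was not tested beyond what each setting does by construction. The planned motif counts around every summit were not run. Few tags limit all values: medians of 10 and 15 tags leave wide counting error, and vehicle levels below the listing threshold were not measured.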
